A study of Sus scrofa with 44 samples.

Results

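Fetal longissimus dorsi, the long muscle of the back, was compared between pig fetuses at 40 and at 33 days post coitus, written E40 and E33. Both stages were profiled by m6A sequencing (MeRIP-seq), in which fragments carrying N6-methyladenosine (m6A) are pulled down with an antibody and sequenced beside the input RNA they came from. The 12 of the series' 44 samples that belong to these stages were chosen by stage label: 3 input and 3 immunoprecipitated libraries at E33, and 3 and 3 at E40. RNA of all 12 was depleted of ribosomal RNA, and the labels name no treatment, genotype, breed or sex for either group. RNA levels were compared over the 6 input libraries, for 13762 of the 22427 genes in the files, namely those with a mean of at least 1 TPM (a share of transcripts corrected for gene length) over the 6. The m6A signal is given by 1 list of peaks per stage, so that it has no replicates. Both groups are whole tissue, and in such samples fewer cells of a type and less RNA per cell cannot be told apart.

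m6A is the most common internal mark of messenger RNA. It is written in the nucleus by a complex around METTL3 and METTL14, mostly within the core letters GGAC and often near stop codons, and is bound by YTH and IGF2BP proteins that influence the decay and translation of the RNA. In the back muscle of the pig, the weeks around these stages are the time of the primary fibres, when myoblasts from the somites fuse and the first sarcomeres are assembled. Nerves, vessels, tendon and cartilage form beside them.

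The 8 windows below show what the m6A peaks of the 2 stages look like at the sequence level. They hold 29 bases each on build Sscrofa11.1, around the core letters, from peaks among the 3 of highest fold in their class and from peaks of 3 genes whose RNA changed. They are written 5′ to 3′ on the strand of the gene, with the matched letters in capitals. Fold enrichment is the authors' own value for a peak. CRACD, listed at both stages with an E33 fold enrichment of 31.7, lies at chr8:55571133-55571161 on the plus strand, in the coding sequence.
CRACD: cgccccctggaaGGACTctgcccagagct
MEX3D, listed at both stages with an E40 fold enrichment of 31.8, lies at chr2:76936793-76936821 on the plus strand, in the coding sequence.
MEX3D: accggccccggaGGACTgtgactttggct
KBTBD2 has the highest E33 fold enrichment, 23.6, among genes with a peak at E33 and none at E40, at chr18:40634269-40634297 on the plus strand, in the coding sequence.
KBTBD2: aacttaaccggaGGACTgtagaaagatac
DEPP1 has the highest E40 fold enrichment, 25, among genes with a peak at E40 and none at E33, at chr14:91119950-91119978 on the plus strand, in the coding sequence.
DEPP1: ccaaggaggactGGACTccctgcggaccc
SCN4A, the sodium channel of skeletal muscle, follows with 24.7 in the same class, at chr12:15045605-15045633 on the plus strand, in the coding sequence.
SCN4A: ctctggggagatGGACgccctcaaggaga
ZIC1 is a transcription factor gene whose RNA fell. Its window at chr13:87746032-87746060 on the plus strand, in the coding sequence, is inside its E33 peak and outside its E40 peak of the same exon.
ZIC1: caactccacgcgGGACTttctgttccgca
RBM15B, a subunit of the methyltransferase complex, holds the same window in peaks of both stages, at chr13:33666115-33666143 on the plus strand, in the coding sequence.
RBM15B: cttcttggaaggGGACTggaccagcccca
SOX9, the main transcription factor of cartilage, has a peak at E33 and none at E40, with its window in the 3′ UTR at chr12:8644148-8644176 on the minus strand.
SOX9: agaatttcctttGGACCtttttttttttt

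One gene without a symbol, ENSSSCG00000032395, took 37.4 to 59.4% of the TPM of the E33 libraries and 50.5 to 65.5% at E40. A second one, ENSSSCG00000032599, took 17.3% in E40 replicate 2 and 0.307 to 1.19% in the other 5 libraries. E40 replicate 2 thus had 17.2% of its TPM in all other genes, against 39.6 to 62.2% in the other 5. Each library was therefore divided by a median-ratio factor, and levels below are these scaled TPM. Log2 changes are on the scale of log2(scaled TPM + 1), which understates the change of low genes. Depth is unknown, because TPM sums to the same total in each library. E40 replicate 2 also held RNA of genes known from skin: KRT15 was at 261, IVL at 133 and KRT10 at 84.6 scaled TPM there, and at 7.53 or less in the other 5 libraries. Spearman's rho over the genes tested was 0.917 to 0.921 between E33 libraries, 0.879 to 0.914 between E40 libraries and 0.836 to 0.867 across the stages. The labels do not say whether the libraries of a stage came from separate animals, so p-values measure a spread between libraries that may be technical. That spread was taken within the stages of all 18 muscle input libraries (E33 to E95), not from these 6 libraries alone. MYH3, the embryonic myosin heavy chain and a defining muscle marker, stood at 2037 to 3363 scaled TPM over the 6 libraries. The 11 matched liver genes summed to 38.4 to 43.6 at E33 and 30.3 to 47.8 at E40, nearly all from APOA1, an apolipoprotein, while AFP and ALB were at 0.774 or less.

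Between E33 and E40, 3002 of the 13762 genes passed limma's test at an adjusted p under 0.05 (21.8%), of which 1353 were higher at E40 (9.83%) and 1649 lower (12%). The median log2 change over all genes tested was -0.02. At least 2-fold changes among them were 247 rises (1.79%) and 396 falls (2.88%), 643 genes in all (4.67%). All 3 libraries of one stage lay outside the range of the other for 5345 genes (38.8%), with E40 higher for 2491 (18.1%) and lower for 2854 (20.7%). Without E40 replicate 2, 3488 genes were called (25.3%), with 1602 higher (11.6%) and 1886 lower (13.7%), and 2656 of them were among the 3002. With the values as deposited, where the median change is -0.60, 902 genes were called (6.55%), with 34 higher (0.247%) and 868 lower (6.31%). Leaving E40 replicate 2 out of the values as deposited gave 476 calls (3.46%) and a median change of -0.18, and the 6 libraries fitted alone with scaling gave 1766 calls (12.8%). Single libraries weighed on the count: 1851 genes were called without E33 replicate 3, 1786 without E40 replicate 1 and 1903 without E40 replicate 3. When TPM was rescaled without the 2 most abundant genes, 27.9% of 2792 calls were higher at E40, against 45.1% here, with a median change of -0.11.

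**Figure D1:**
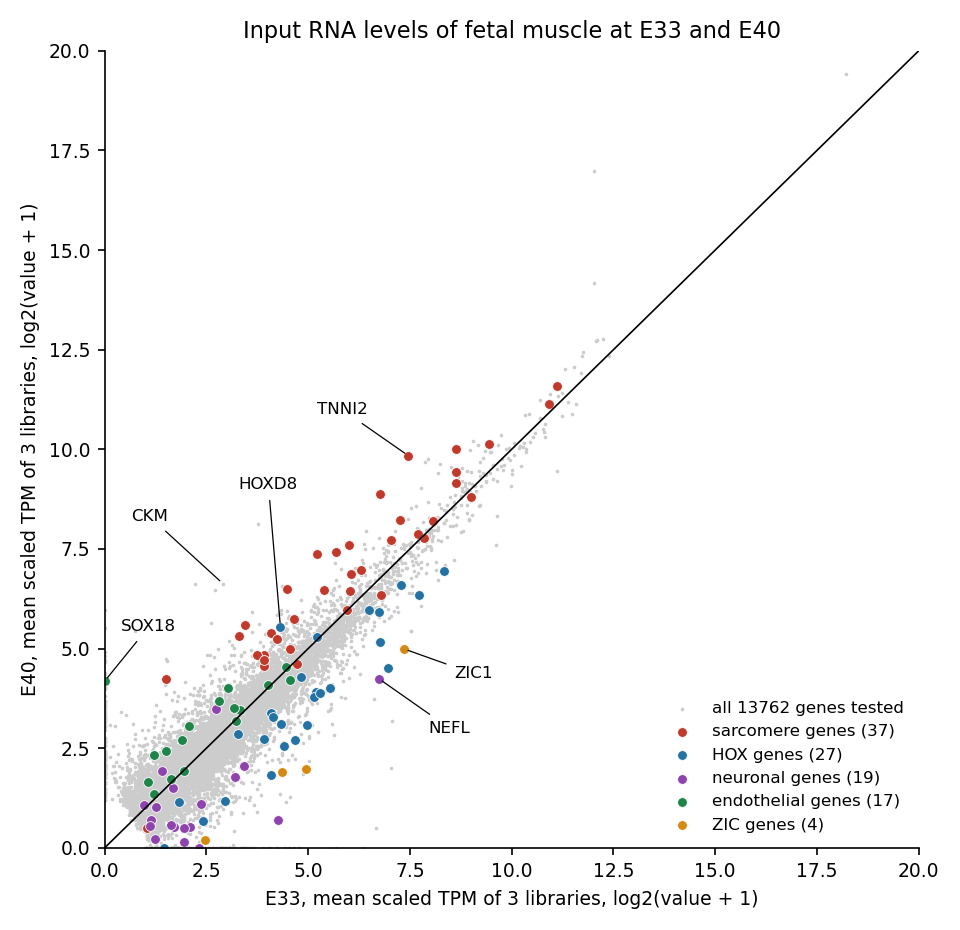
Mean scaled TPM of the 3 E33 input libraries (x axis) and the 3 E40 input libraries (y axis), both as log2(value + 1), for the 13762 genes tested (grey) and for 5 gene groups (colours). The black line marks equal levels; most sarcomere genes lie above it and most HOX genes, the 4 ZIC genes and most neuronal genes below it.

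Most genes of the contractile apparatus rose. Of 37 sarcomere genes tested, 24 rose, none fell and 13 did not pass the test, beside 9.83% called higher and 12% called lower of all genes. Their median log2 change was 0.81, against -0.02 over all genes tested. With the values as deposited 2 rose. In 2 members that were not called, TNNC1 and TPM1 (log2 change -0.19 and -0.45), every E40 library was below every E33 library. TNNI2, the fast inhibitory troponin subunit (chr2:1251566-1253883), stood at 152, 175 and 198 at E33 and 980.5, 938 and 829 at E40. The groups did not overlap (log2 change 2.39, SE 0.215, adjusted p = 4.77e-06). MYOZ1, a Z-disc protein that binds alpha-actinin, was at 1.29, 1.58 and 2.71 at E33 and 18.2, 21.2 and 14.3 at E40. Every E40 library was at least 5 times every E33 library in that gene (log2 change 2.74, SE 0.246, adjusted p = 4.77e-06).

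The fast troponin T gene TNNT3 was at 104, 93.4 and 124 at E33 and 478, 477 and 441 at E40. All E40 libraries were close together and far above E33 (log2 change 2.12, SE 0.163, adjusted p = 1.59e-06). MYL2, the slow regulatory myosin light chain, was at 32.5, 35 and 40.8 at E33 and 168, 127 and 197 at E40, with E40 replicate 2 the lowest of its stage (log2 change 2.14, SE 0.235, adjusted p = 2.68e-05). The M-band gene MYOM2 was at 8.78, 8.43 and 9.46 at E33 and 38.6, 36.6 and 42 at E40 (log2 change 2.02, SE 0.126, adjusted p = 2.77e-07). In both genes of the thick filament region, MYOM2 and the myosin-binding protein gene MYBPC1, the stages did not overlap. MYBPC1 was at 19.3, 21.7 and 22.7 at E33 and 95.2, 78.5 and 95.2 at E40 (log2 change 2.02, SE 0.13, adjusted p = 3.38e-07).

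Of the myosin heavy chains measured, MYH8 rose and MYH3 did not pass the test, and the difference between their changes was not tested. MYH8, the perinatal heavy chain, stood at 357, 403 and 436 at E33 and 1029.5, 1147 and 912 at E40, with no overlap (log2 change 1.37, SE 0.196, adjusted p = 0.000244). MYH3, the embryonic heavy chain and the more abundant of the pair at both stages, stood at 2037, 2126 and 2480.1 at E33 and 2938, 3363 and 2901 at E40. Its E40 libraries were all above E33, yet the change did not pass the test (log2 change 0.47, SE 0.186, adjusted p = 0.0844). The cardiac and skeletal alpha-actins ACTC1 and ACTA1 did not pass either, at 1999, 1919 and 1891 at E33 and 2384, 1992 and 2378 at E40 for ACTC1, whose groups overlapped, and 386, 351 and 449.7 at E33 and 579, 574 and 561 at E40 for ACTA1, whose groups did not. The summed level of the 39 matched genes of the list, tested or not, ranged from 8286 to 9169.6 scaled TPM over the E33 libraries and from 12969.6 to 13579 at E40. Without E40 replicate 2 the same list had 23 rises. With the values as deposited it had 2 rises, and its median was 0.10 where that of all genes was -0.60. The symbols TTN, MYH1, MYH2, MYH4, MYH7 and MYLPF were not matched in the table and were not analysed here.

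Of 14 genes of excitation-contraction coupling, the step from membrane depolarisation to calcium release, 8 rose and 1 fell, with a median of 0.67. The shares over all genes were 9.83% called higher and 12% called lower. SLN, which codes for sarcolipin, a small inhibitor of the calcium pump, was at 4.67, 3.29 and 4.97 at E33 and 22.5, 21.7 and 23.4 at E40. Both groups were tight and apart (log2 change 2.16, SE 0.153, adjusted p = 8.21e-07). ATP2A2, the slow and cardiac calcium pump, stood at 32.5, 31.4 and 34 at E33 and 63.2, 61.5 and 57.9 at E40 and rose (log2 change 0.88, SE 0.114, adjusted p = 0.000105). ATP2A1, the fast pump, stood at 26, 22 and 23.8 at E33 and 18.6, 16.7 and 16.5 at E40 and fell (log2 change -0.45, SE 0.135, adjusted p = 0.0305). This call was lost on leaving out any single library of the 6 other than E33 replicate 2. JPH1, which ties the T-tubule to the calcium store, was at 4.99, 4.95 and 4.45 at E33 and 12.2, 10.1 and 13 at E40 (log2 change 1.13, SE 0.10, adjusted p = 4.19e-06).

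Of 5 genes of the neuromuscular junction, 3 rose and 1 fell, beside 9.83% and 12% of all genes. The rises numbered 2 without E33 replicate 1, E33 replicate 2 or E40 replicate 2. CHRNA1, the alpha subunit of the muscle acetylcholine receptor, was at 33.2, 38.2 and 31 at E33 and 55.6, 50.4 and 71.3 at E40, and MUSK, the receptor kinase that clusters it, at 6.81, 6.96 and 4.77 at E33 and 12.8, 10.5 and 15.7 at E40. Both rose with no overlap (log2 change 0.76, adjusted p = 0.000395 for CHRNA1; log2 change 0.96, adjusted p = 0.000298 for MUSK). ACHE, the esterase that removes acetylcholine, went the other way, at 13, 15.4 and 15.1 at E33 and 6.05, 7.77 and 9.53 at E40 (log2 change -0.84, adjusted p = 0.0195). The call of ACHE was lost without E33 replicate 2, E33 replicate 3 or E40 replicate 1.

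CKM, the muscle creatine kinase that buffers ATP (chr6:51704021-51716935), had the largest called rise among genes with a symbol and a value above 0 in all 6 libraries. It stood at 5.16, 6.35 and 7.98 at E33 and 108, 93.5 and 92.6 at E40. Every E40 library was more than 10 times every E33 library (log2 change 3.74, SE 0.197, adjusted p = 4.63e-08). Its list of 22 genes of creatine kinase, glycolysis and glycogen split, with 7 rises and 6 falls and a median of 0.03. The shares over all genes were 9.83% and 12%. Leaving out E33 replicate 3 gave 2 falls, and leaving out E33 replicate 1, E40 replicate 1 or E40 replicate 3 gave 3. The muscle forms ENO3, at 22.4, 17 and 19.8 at E33 and 45.6, 36.8 and 47.4 at E40, PYGM, the muscle glycogen phosphorylase, and AMPD1, the muscle AMP deaminase, were among the rises (log2 change 1.09, adjusted p = 0.000545 for ENO3). ENO1, the widely expressed enolase, stood at 159.8, 158 and 158 at E33 and 90.7, 110.2 and 87.7 at E40 and fell (log2 change -0.72, adjusted p = 0.00416), as did the hexokinase genes HK1 and HK2 (log2 changes -0.40 and -0.69). PFKM, the muscle phosphofructokinase, fell too (log2 change -0.39, adjusted p = 0.0116). CA3, a carbonic anhydrase abundant in muscle, rose from under 1 scaled TPM, at 0.445, 0.52 and 0.366 at E33 and 13.4, 5.25 and 8.51 at E40 (log2 change 2.72, SE 0.244, adjusted p = 4.77e-06).

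**Figure D2:**
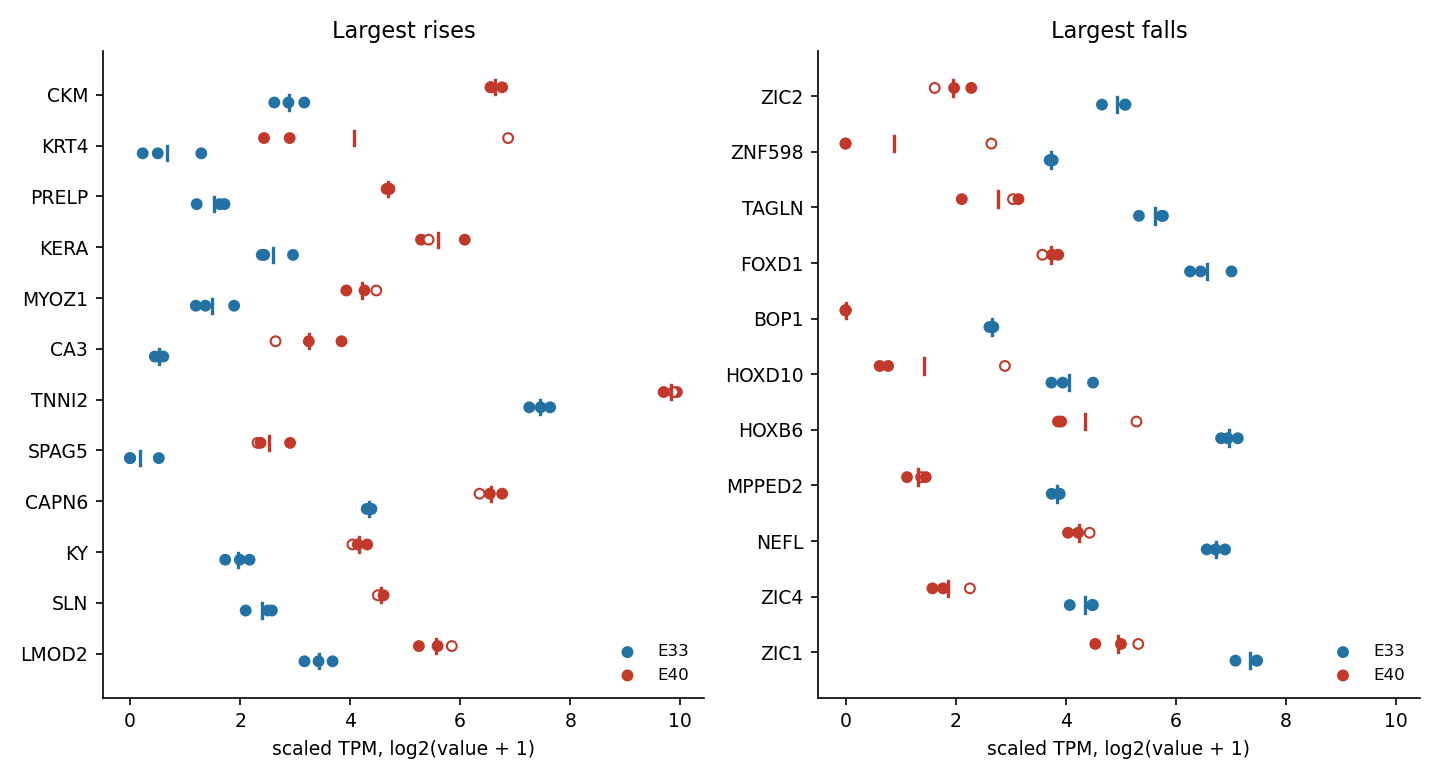
Scaled TPM as log2(value + 1) in each input library (points) for the 12 genes with the largest called rises and 11 of the 12 with the largest called falls, E33 in blue and E40 in red, with E40 replicate 2 drawn as an open circle and the stage mean of 3 libraries as a vertical bar. The genes were chosen among those called whose stages do not overlap, so that the gap between the stages is fixed by the choice; KRT4, ZNF598 and HOXD10 have E40 replicate 2 far from the other E40 libraries.

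Transcription factors of the myogenic programme were less uniform. Of 17 tested, 2 rose and 4 fell (median -0.28), beside 9.83% called higher and 12% called lower of all genes. The 4 myogenic regulatory factors did not pass the test. MYOD1, which commits cells to muscle, was at 151, 112 and 102 at E33 and 89.4, 74.5 and 89.9 at E40 (log2 change -0.50, adjusted p = 0.0634), MYOG, which drives their differentiation, at 125, 127 and 120.1 at E33 and 104, 104 and 98.4 at E40 (log2 change -0.28, adjusted p = 0.208). Both were lower in every E40 library than in every E33 library, in contrast to MYF5, whose groups overlapped at 66.5, 61.6 and 83.1 at E33 and 52.3, 66.9 and 41.8 at E40. PAX7, the marker of fetal muscle progenitors, rose, at 13.2, 12.2 and 11.8 at E33 and 19, 19.8 and 16.4 at E40 (log2 change 0.53, SE 0.124, adjusted p = 0.00757).

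ID2 and ID3, inhibitors of basic helix-loop-helix factors such as MYOD1, fell. ID2 was at 46.4, 44.5 and 47.2 at E33 and 8.73, 11.6 and 10.9 at E40, with every E40 library under 12 scaled TPM (log2 change -2.05, SE 0.276, adjusted p = 0.000144). ID3 was at 76.8, 57.2 and 106 at E33 and 29.5, 24.8 and 43.6 at E40 (log2 change -1.26, SE 0.319, adjusted p = 0.0123). Among 14 genes of myoblast fusion and adhesion, 2 rose and 6 fell (median -0.24), beside 9.83% and 12% of all genes. Without E40 replicate 1 there were 1 rise and 3 falls, and 1 rise also without E33 replicate 1, 2 or 3 or E40 replicate 3. BOC, a co-receptor that promotes myogenic differentiation, stood at 58.2, 51.1 and 58 at E33 and 18.8, 23.5 and 21.4 at E40 and N-cadherin, CDH2, at 10.3 ± 0.857 at E33 and 2.92 ± 0.543 at E40 (SD, n = 3). Neither gene's groups overlapped (log2 change -1.35, adjusted p = 2.93e-06 for BOC; log2 change -1.54, adjusted p = 3.26e-06 for CDH2). ITGA7, the laminin receptor subunit of muscle fibres, rose, at 13.7, 9.79 and 12.5 at E33 and 28.8, 26.8 and 25.6 at E40 (log2 change 1.12, adjusted p = 0.000369). MYMK, which is required for fusion, was at 38.1, 33.5 and 37.3 at E33 and 35.1, 27 and 32.7 at E40, with overlapping groups and no call.

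HOX genes, which set position along the body axis, fell as a group. Of 27 tested, 18 fell, 1 rose and 8 did not pass, with a median of -1.30 against -0.02 over all genes. The shares over all genes were 12% called lower and 9.83% called higher. HOXB6 (chr12:24849741-24853494) was at 112, 122 and 139 at E33 and 13.5, 38 and 14.1 at E40. E40 replicate 2 was the highest of its stage and still below every E33 library (log2 change -2.61, SE 0.327, adjusted p = 7.76e-05). HOXC8 was at 119, 94.5 and 112 at E33 and 34.6, 39 and 30.4 at E40 (log2 change -1.62, SE 0.164, adjusted p = 1.37e-05) and HOXA5 at 282, 168 and 183 at E33 and 77.5, 91 and 73.7 at E40 (log2 change -1.34, SE 0.233, adjusted p = 0.00112). HOXC6, with the highest level of the 27 in every E33 library, was at 314, 285 and 364 at E33 and 124, 151 and 90.5 at E40 (log2 change -1.41, adjusted p = 0.000798).

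HOXD8 was the exception, at 18.5, 20.1 and 18.2 at E33 and 55.3, 44.3 and 37.7 at E40, and rose (log2 change 1.21, SE 0.186, adjusted p = 0.000413). Its neighbour HOXD9 was not called (log2 change 0.01), and HOXD10 fell, at 14.4, 21.6 and 12.4 at E33 and 0.711, 6.45 and 0.536 at E40, where E40 replicate 2 stood apart from its stage (log2 change -2.63, adjusted p = 0.00746). Called falls lay in all 4 clusters, with 4 of 7 genes tested in HOXA, 7 of 7 in HOXB, 5 of 6 in HOXC and 2 of 7 in HOXD. The list had 18 falls and 1 rise without E40 replicate 2, and 17 falls with the values as deposited, where its median was -1.98 against -0.60.

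The 4 ZIC genes described here, zinc finger transcription factors of the neural tube and somites, fell; they were picked after their values were seen. ZIC1 (chr13:87740769-87750258) was at 177, 135 and 177 at E33 and 22.3, 38.9 and 31.1 at E40, and its neighbour ZIC4 (chr13:87725642-87740724) at 21.6, 15.9 and 21.3 at E33 and 2.41, 3.79 and 1.99 at E40. ZIC2 was at 32.8, 24.3 and 33 at E33 and 3.87, 2.07 and 2.92 at E40. Every E33 library was at least 3 times every E40 library in these 3 genes. Their log2 changes were -2.39 (ZIC1, SE 0.194), -2.48 (ZIC4, SE 0.211) and -2.98 (ZIC2, SE 0.332), with limma adjusted p from 2.18e-06 to 2.89e-05. ZIC5, the least abundant of the 4, was listed at 0 in E40 replicates 1 and 3. FOXD1, a forkhead transcription factor, was at 128, 75.7 and 86.6 at E33 and 12.5, 10.9 and 13.6 at E40 (log2 change -2.84, SE 0.572, adjusted p = 0.00307).

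Nerve genes were lower at E40. Of 19 neuronal markers tested, 10 fell and 1 rose, with a median of -1.14. The filter is on the mean of the 6 libraries, so a low marker can pass through its E33 level alone. With no filter, 14 of 28 markers fell and 1 rose, with a median of -0.49. With a filter at 5 TPM, 4 of 5 fell and 1 rose, with a median of -1.42. The summed level of the 28 matched markers was 145 to 216 scaled TPM at E33 and 42.8 to 53.4 at E40. NEFL, the light neurofilament subunit, was at 93.6, 105 and 118 at E33 and 17.7, 20.6 and 15.5 at E40 (log2 change -2.49, SE 0.425, adjusted p = 0.000971). PRPH, the filament of peripheral neurons, was at 3.48, 24 and 26.7 at E33 and 0, 0.553 and 1.29 at E40, listed at 0 in 1 library (log2 change -3.26, adjusted p = 0.00218). GAP43, a growth cone protein, was at 3.03, 2.75 and 2.76 at E33 and 0.452, 0.36 and 0.394 at E40, with all E40 libraries under 0.5 (log2 change -1.45, SE 0.111, adjusted p = 1.59e-06). DCX, a microtubule protein of migrating neurons, was at 5.56, 6.07 and 5.31 at E33 and 10.8, 7.97 and 11.7 at E40 and rose (log2 change 0.73, adjusted p = 0.00155).

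In 2 nerve genes the E40 libraries were at or near 0. NEUROG1, a transcription factor of neural precursors, was at 2.31, 9.82 and 5.75 at E33 and 0, 0 and 0 at E40, that is, listed at 0 in every E40 library (limma adjusted p = 0.000438). CHGA, a secretory granule protein, had values of 3.77 to 4.19 at E33 and no more than 4.72e-05 at E40. Of 5 neural progenitor genes 3 fell, and 2 fell without E33 replicate 2 or any 1 E40 library. With no filter, 4 of 9 fell, with a median of -0.68. The summed level of the 12 matched genes, tested or not, was 2108 to 2464 scaled TPM at E33 and 2277 to 2977 at E40, so that it overlapped. Of 7 Schwann cell genes 1 fell and 1 rose. SOX10, the neural crest factor of Schwann cells, fell, at 8.36, 7.86 and 8.58 at E33 and 4.57, 5.13 and 4.02 at E40 (log2 change -0.74, adjusted p = 0.0012). PMP22, a myelin protein, rose (log2 change 0.42, adjusted p = 0.0264). That rise was not called without E33 replicate 1, E40 replicate 1 or E40 replicate 3, or with the 6 libraries alone. The part of nerve tissue carried with the muscle in these falls was not tested. Over all genes tested, 9.83% were called higher and 12% lower.

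Cartilage genes that fell were SOX9, COL9A1, COL9A3 and MATN1, 4 of 10 tested, while SOX6 rose (median -0.29). The shares over all genes were 12% called lower and 9.83% called higher. The call of SOX6 was lost without E33 replicate 1, E33 replicate 3, E40 replicate 1 or E40 replicate 3. SOX9 was at 43.5, 42.7 and 54.5 at E33 and 13.6, 19.4 and 15.7 at E40 (log2 change -1.48, SE 0.278, adjusted p = 0.00193), and COL9A3, a cartilage collagen, at 20.4, 15.1 and 23.1 at E33 and 3.60, 6.36 and 2.60 at E40 (log2 change -2.03, SE 0.307, adjusted p = 0.000376). COL2A1, the main cartilage collagen, was at 88.5, 65.1 and 97.4 at E33 and 49.7, 89.7 and 74.2 at E40 with overlapping groups and no call. The summed level of the 15 matched cartilage genes, tested or not, was 159 to 221 scaled TPM at E33 and 105 to 173 at E40, so that it overlapped. RUNX2, the master factor of bone, was at 4.44, 3.82 and 4.19 at E33 and 0.25, 0.403 and 0.244 at E40, and the groups were far apart (log2 change -1.99, SE 0.106, adjusted p = 4.78e-08).

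Of 28 fibroblast and matrix genes, 5 rose and 5 fell (median 0.28). POSTN, periostin of young connective tissue, was at 77.6, 84.9 and 90.7 at E33 and 170.1, 309 and 258 at E40 (log2 change 1.49, adjusted p = 0.0156), and DCN, decorin, a proteoglycan that binds collagen fibrils, at 20.8, 25.5 and 25.6 at E33 and 42.4, 45.1 and 48.6 at E40 (log2 change 0.90, adjusted p = 0.00311). Both groups were apart and E40 was higher. FN1, fibronectin, went down, at 224, 233 and 256 at E33 and 95.9, 132 and 125 at E40 (log2 change -1.02, adjusted p = 0.00287), as did TNC, tenascin C, at 54.9, 51.5 and 58.7 at E33 and 22.3, 28.1 and 24.4 at E40 (log2 change -1.12, adjusted p = 1.95e-05). Outside the list, PRELP and KERA, proteoglycans of dense connective tissue, had larger log2 changes than any called gene in it. PRELP was at 2.09, 1.32 and 2.29 at E33 and 24.3, 25.1 and 25.2 at E40 (log2 change 3.18, SE 0.201, adjusted p = 3.00e-07) and KERA, keratocan, at 4.42, 4.26 and 6.79 at E33 and 38.1, 42 and 66.8 at E40 (log2 change 3.00, SE 0.579, adjusted p = 0.00234). The 6 tendon genes had no call (9.83% and 12% over all genes).

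Vessel genes rose in part. Of 17 endothelial markers tested, 8 rose and none fell (median 0.32), beside 9.83% and 12% of all genes. The summed level of the 18 matched markers was 105 to 120 scaled TPM at E33 and 137 to 185 at E40. KDR, the main receptor of vascular endothelial growth factor, was at 6.03, 7.26 and 8.24 at E33 and 16.4, 15.8 and 13.5 at E40 (log2 change 1.00, SE 0.0999, adjusted p = 1.29e-05), and PECAM1, a junction protein, at 2.56, 3.11 and 3.87 at E33 and 7.49, 7.62 and 6.70 at E40 (log2 change 0.99, SE 0.137, adjusted p = 0.000174). Neither gene's stages overlapped. SOX18, a transcription factor of vessel and lymphatic endothelium, was listed at 0 in all E33 libraries and stood at 22.6, 15.5 and 13.4 scaled TPM at E40 (adjusted p = 0.00232). At E50 SOX18 stood at 22, 0 and 13.7, so that 0 and values well above it also occurred within a stage. With the values as deposited 1 of the 17 rose, and the median was -0.25 where that of all genes was -0.60.

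Of 10 pericyte and smooth muscle genes, 4 rose and 2 fell, beside 9.83% and 12% of all genes. RGS5, a regulator of G protein signalling in pericytes, was at 0.481, 0.77 and 0.77 at E33 and 2.95, 2.75 and 2.58 at E40 (log2 change 1.17, adjusted p = 3.82e-05). TAGLN, transgelin of smooth and young striated muscle, was at 53.5, 39.3 and 52.7 at E33 and 3.32, 7.24 and 7.84 at E40 and fell (log2 change -2.85, SE 0.425, adjusted p = 0.000335). Among 13 macrophage and leukocyte genes, CD163, a scavenger receptor, rose and none fell.

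Blood genes differed by globin. HBZ, the embryonic zeta globin, was at 101, 73.1 and 215 at E33 and 0, 7.52 and 1.42 at E40 (log2 change -5.42, SE 0.951, adjusted p = 0.0012). HBB, a beta globin, was at 122, 356 and 217 at E33 and 620.4, 910.2 and 945 at E40 (log2 change 1.93, SE 0.455, adjusted p = 0.00814). One E40 library listed HBZ at 0, and neither gene's stages overlapped. Of 13 erythroid genes, 2 rose and 2 fell, beside 9.83% and 12% of all genes. The part of circulating blood in the samples was not tested.

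Genes of growth control moved both ways, with 5 rises and 6 falls among 16 fetal growth and imprinted genes, beside 9.83% and 12% of all genes. The falls numbered 3 without E33 replicate 1, E33 replicate 3, E40 replicate 1 or E40 replicate 3. The 6 libraries fitted alone gave 4 rises and 1 fall. PEG10, an imprinted gene derived from a retrotransposon, was at 472, 543 and 579 at E33 and 1185, 1215 and 1174 at E40 (log2 change 1.17, SE 0.134, adjusted p = 3.73e-05), and DLK1, an imprinted regulator of muscle and fat growth, at 95, 63.6 and 86.7 at E33 and 209, 192 and 190.2 at E40 (log2 change 1.28, SE 0.154, adjusted p = 5.42e-05). Both were higher in all E40 libraries. LIN28B, which blocks let-7 maturation, and HMGA1, a chromatin protein of embryonic cells, fell (log2 change -0.56, adjusted p = 0.00456 for LIN28B; log2 change -0.76, adjusted p = 0.0231 for HMGA1).

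None of 44 cytosolic ribosomal protein genes passed limma's test in either direction (4 had an unadjusted p under 0.05, and 3 rose without E40 replicate 2), with a median of 0.07. Of 41 genes of cell cycle and DNA replication, 4 rose and 5 fell (median 0.06), which is near the 9.83% and 12% of all genes. Leaving out E33 replicate 3 gave 0 rises and 1 fall, leaving out E40 replicate 3 gave 1 of each, and leaving out either stage's replicate 1 gave 3 rises and 1 fall. Of 41 nuclear genes of oxidative phosphorylation 3 rose and 1 fell (median 0.06), with 1 rise and no fall without E33 replicate 3 or E40 replicate 3. MCM5, a helicase subunit of replication, fell (log2 change -0.74, adjusted p = 0.024), and COX6A2, the muscle form of a cytochrome oxidase subunit, rose (log2 change 0.68, adjusted p = 0.00548).

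Of 13 splicing regulators known from muscle, 5 rose and 1 fell (median 0.45). The rises numbered 2 without E40 replicate 1 and 3 without E33 replicate 1 or E33 replicate 3. NOVA1, a splicing factor best known from neurons, was at 1.09, 1.59 and 1.19 at E33 and 4.38, 2.65 and 5.25 at E40 (log2 change 1.12, adjusted p = 0.000318). PTBP1, a repressor of tissue-specific exons, was at 79.1, 70.5 and 81.1 at E33 and 50.6, 58 and 51.4 at E40 and fell (log2 change -0.52, adjusted p = 0.00128). With the values as deposited, where the median of all genes is lower, rises were called in 3 of the lists described: 2 in the sarcomere list, 1 in that of creatine kinase and glycolysis and 1 in the endothelial list. Of 18 Notch pathway genes, 2 rose and 1 fell, of 8 adipogenic genes 2 rose and 2 fell, and of 16 immediate early genes 2 fell, beside 9.83% and 12% of all genes. The Notch counts were 1 and 0 without E33 replicate 3 or any 1 E40 library, and no immediate early gene was called without E33 replicate 1 or E40 replicate 1.

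Of 21 genes of the m6A machinery, 1 rose and 2 fell (median 0.01), beside 9.83% and 12% of all genes. Without E33 replicate 3, E40 replicate 1 or E40 replicate 3 no member rose and 1 fell, and without E40 replicate 2 there were 2 rises and 2 falls. The writers METTL3 and METTL14 (log2 change 0.10 and 0.01) and the erasers FTO and ALKBH5 (0.09 and -0.27) were not called. VIRMA, a scaffold of the writer complex, was at 8.52, 9.29 and 8.45 at E33 and 12.3, 10.8 and 11.6 at E40 and rose (log2 change 0.37, SE 0.0994, adjusted p = 0.018). IGF2BP1, a fetal m6A reader that stabilises RNA, was at 21.9, 21.2 and 23.7 at E33 and 12, 14.8 and 12.2 at E40, with no overlap, and fell (log2 change -0.74, SE 0.149, adjusted p = 0.00314). RBM15B, whose window is printed above, was at 146, 137 and 159.6 at E33 and 89.6, 127 and 89.1 at E40 (log2 change -0.54, SE 0.182, adjusted p = 0.0454).

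**Figure D3:**
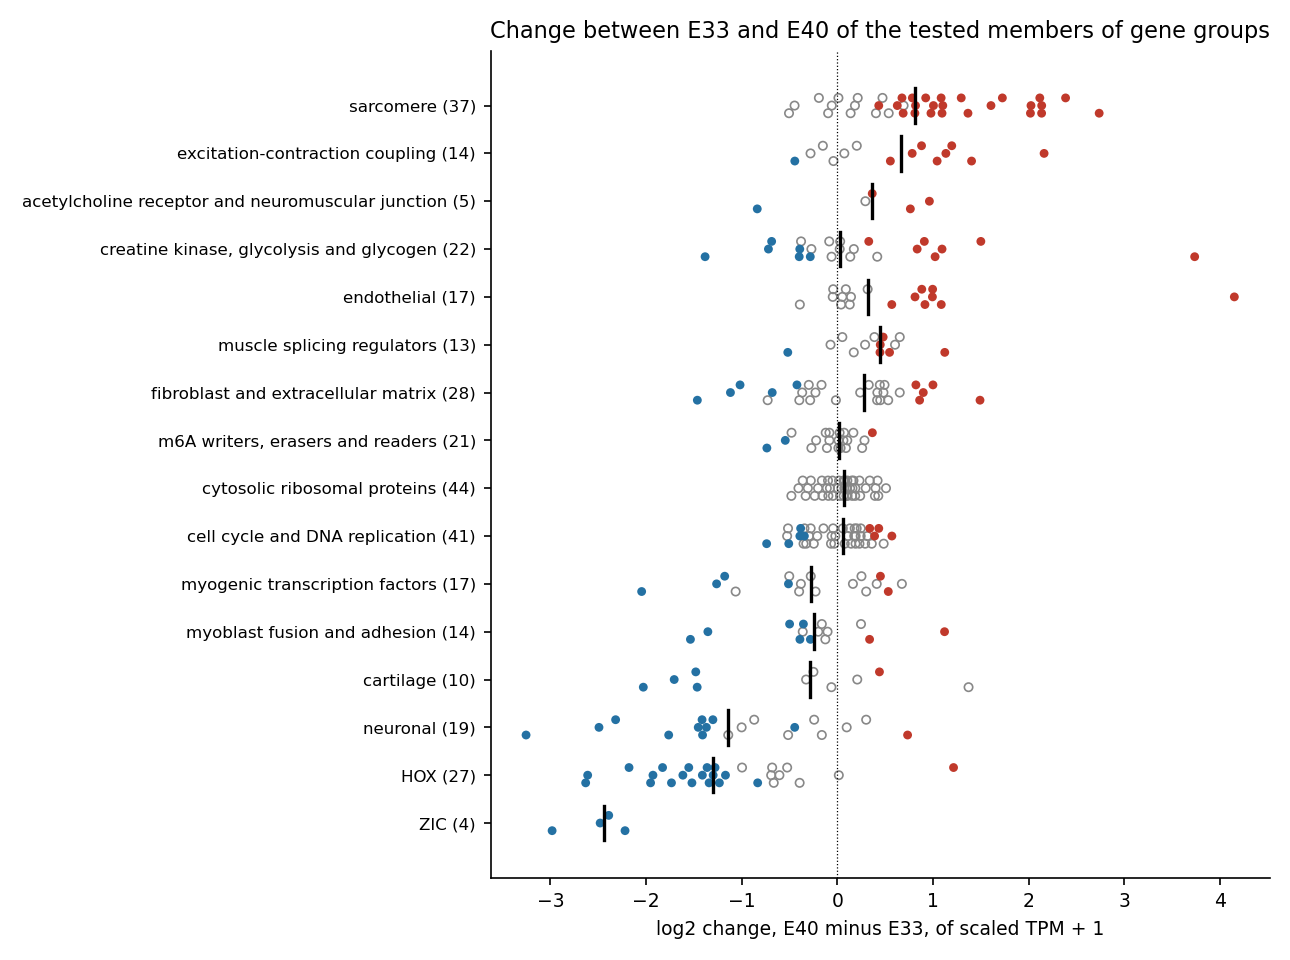
Log2 change between E33 and E40 of each tested member (points) of 16 gene groups, with the number of members in brackets and the median as a black bar. Filled points passed limma's test at an adjusted p under 0.05 (red higher at E40, blue lower), and open points did not; sarcomere members lie mostly to the right of 0 and HOX, ZIC and neuronal members mostly to the left.

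Several of the genes with the largest changes lie outside the groups above. KRT4, a keratin of moist epithelia, was at 0.172, 1.45 and 0.418 at E33 and 6.47, 116 and 4.41 at E40; E40 replicate 2 stood far above every other library. Without that library its log2 change was 2.02, and with the 6 libraries alone it was not called (adjusted p = 0.10). CAPN6, a calpain without protease activity, was at 18.7, 19.9 and 19.6 at E33 and 92, 80.7 and 108 at E40 (log2 change 2.20, SE 0.096, adjusted p = 7.17e-09), and KY, a muscle protein of the Z-disc, at 2.99, 2.32 and 3.51 at E33 and 18.9, 15.5 and 16.6 at E40 (log2 change 2.20, SE 0.176, adjusted p = 1.92e-06). Of the sarcomere list, LMOD2, which nucleates actin filaments, was at 9.75, 8.0 and 11.8 at E33 and 37, 56.6 and 47.1 at E40 (log2 change 2.14, SE 0.303, adjusted p = 0.000214). SPAG5, a spindle protein, rose from 0.436 or less to 3.98 or more (limma adjusted p = 0.014). The call was lost without E33 replicate 3 and without E40 replicate 1. At E50 SPAG5 stood at 4.58, 7.34 and 0.00113, so that values near 0 and well above it occurred within a stage.

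Among the falls, MPPED2, a metallophosphoesterase, was at 13.9, 12.4 and 13.7 at E33 and 1.17, 1.59 and 1.75 at E40 (log2 change -2.52, SE 0.136, adjusted p = 4.78e-08). ZNF598, a ubiquitin ligase that senses collided ribosomes, had 12.1 to 12.6 at E33, and 5.28 in E40 replicate 2 and near 0 in the other E40 libraries (adjusted p = 0.0148, and 0.0596 with the 6 libraries alone). BOP1, a ribosome assembly factor, had 5.13 to 5.44 at E33 and no more than 0.000682 at E40. At E50 it stood at 0.000593, 0.000408 and 4.18, so that it also differed this widely within a stage. CCIN and B3GNT4 were listed at 0 in every E40 library, and PHETA2 in every E33 library. At E50 PHETA2 stood at 0, 6.28 and 8.68. B3GNT4 stood at 3.03, 2.58 and 3.77 at E33 (adjusted p = 0.046). The log2 change of B3GNT4 was -2.03, and -2.09 to -1.89 with any 1 of the 6 libraries left out, each of which ended the call (adjusted p = 0.0743 to 0.131).

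The m6A peak list of E33 was the longer, with 8685 peaks in 4767 genes against 4928 in 3047 genes at E40. The median of the authors' fold enrichment was 3.51 at E33 and 4.23 at E40. Of the E40 peaks 91.8% overlapped an E33 peak by at least 1 base, and of the E33 peaks 49.8% overlapped an E40 peak. Over 3878 one-to-one pairs the log2 ratio of E40 to E33 fold had a median of 0.25, and 69.6% of pairs were higher at E40. Peaks without a partner were weaker and shorter: at E33 their median fold was 3.23 and exonic length 151 bases, against 3.75 and 271 for peaks with one. How the replicates entered the lists is not given in the sources used here, and the part of E40 replicate 2 in the shorter list was not tested.

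Peaks were listed more often in more abundant RNA. At E33 the share of genes with a peak was 8.54% among genes of 1 to 2 scaled TPM and 61.8% among those of 50 or more. At E40 it was 3.99% and 46.2%. In all 6 ranges of level the E40 share was lower, and the Wilson 95% intervals did not overlap.

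**Figure D4:**
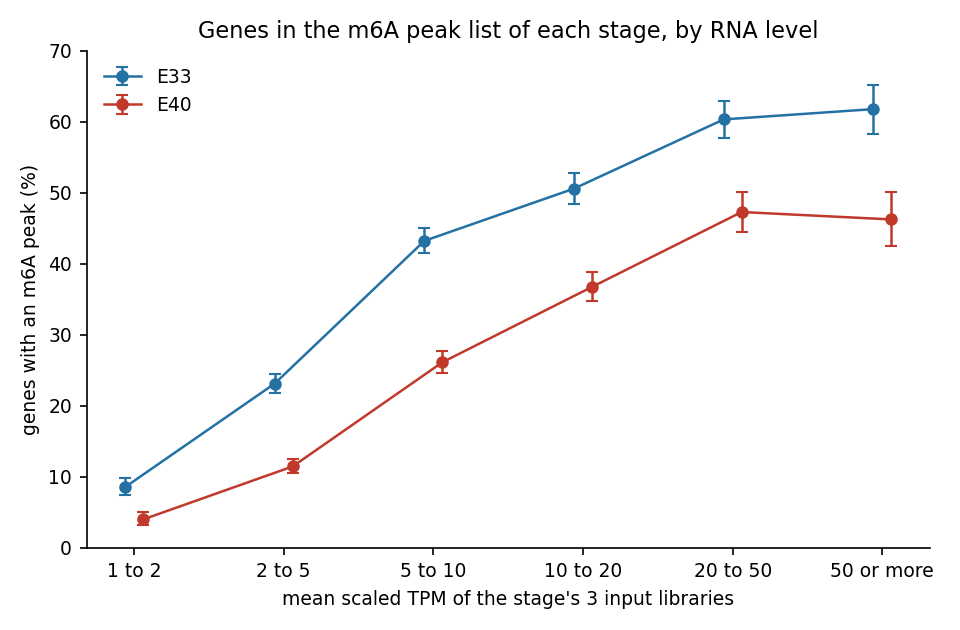
Share of genes in the m6A peak list of E33 (blue) and E40 (red), in percent, by the mean scaled TPM of that stage's 3 input libraries, with Wilson 95% intervals that cover counting error only. The share goes from 8.54 to 61.8% at E33 and from 3.99 to 46.2% at E40, and is lower at E40 in each range.

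Among the 13762 genes tested for expression, 2841 had a peak at both stages (20.6%), 1822 at E33 only (13.2%), 161 at E40 only (1.17%) and 8938 at neither. Genes with a peak at E40 only were often called higher at E40, 28.6% of them against 9.83% of all genes, and 8.07% were called lower. Those with a peak at E33 only leaned the other way, with 20.3% called lower against 12% of all genes, and 7.90% called higher. Read from the expression side, 3.40% of the genes called higher, 0.788% of those called lower and 0.948% of those not called had a peak at E40 only. A peak at E33 only was found in 10.6% of genes called higher, 22.4% of those called lower and 12.2% of those not called. The part of RNA level, with which the share of genes listed went up, was not tested in these shares.

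In each library the median level of genes with a peak at E40 only lay below that of genes with a peak at both. The difference was -0.97, -0.87 and -0.85 (log2) in the E33 libraries and -0.55, -0.64 and -0.52 at E40, a change of 0.32 between the means. With only the stronger part of each list, that above its median fold, the change was 0.04. For genes with a peak at E33 only the change was -0.07, from -0.57 ± 0.016 to -0.64 ± 0.028 (SD, n = 3). Because a gene was more often listed where its RNA was higher, the classes were themselves partly chosen on RNA level at each stage, and these values are a description with no test.

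**Figure D5:**
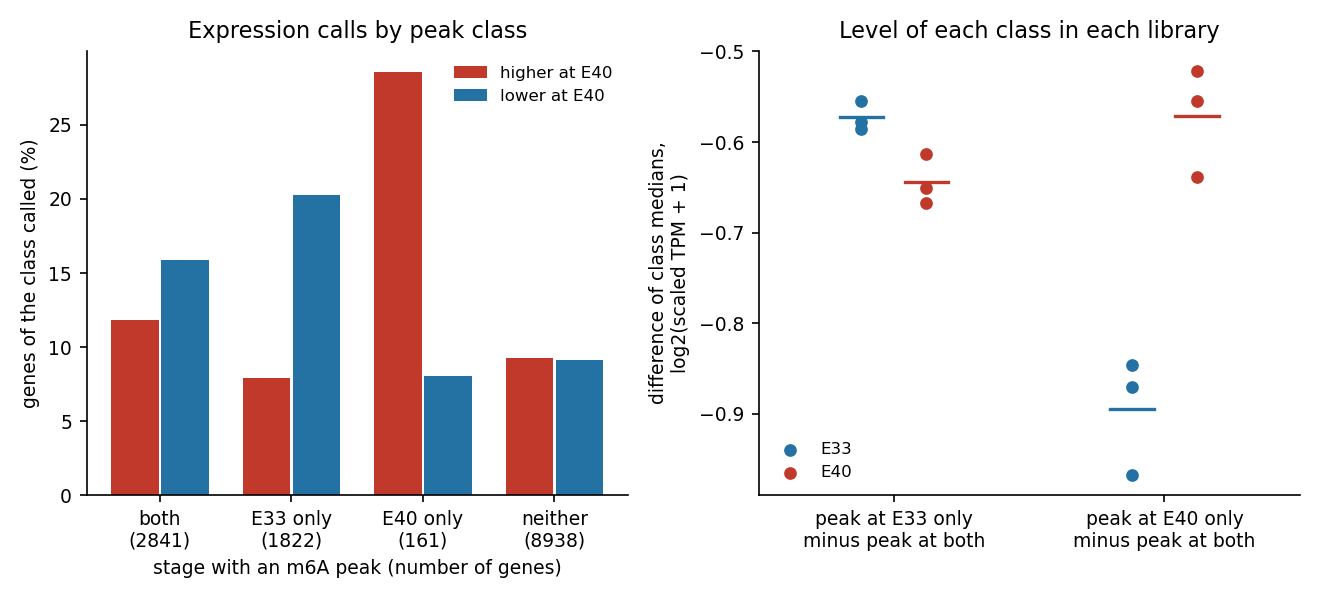
Left: percentage of genes called higher (red) and lower (blue) at E40 by the stage at which they had an m6A peak, with the number of genes in brackets. Right: difference in each input library (points; bars are stage means of 3) between the median log2(scaled TPM + 1) of genes with a peak at 1 stage and that of genes with a peak at both, where the E40-only class moves from -0.89 to -0.57.

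Where the peaks lay differed between classes. In E33 peaks of genes listed at both stages 66.2% were centred in the coding sequence and 16% within 200 bases of the stop codon. In genes with a peak at E33 only these shares were 47.1% (Wilson 95% interval 45.1 to 49.2) and 25.9% (24.2 to 27.8). E40 peaks of genes listed at both had 67.5% and 16.9%, and E40-only genes 56.7% and 22.8% over 171 peaks. Genes with several peaks enter a class once for each peak.

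The core letters were more common in peaks than elsewhere in the same transcripts. GGACT, read on the strand of the gene, was in 27.9% of the 201-base windows centred on E33 peaks and in 27.0% of those on E40 peaks, against 16.3% of other windows of these transcripts at either stage. The shorter GGAC, which each GGACT contains, was in 72.7% and 73.9% against 51.1% and 51.2%. The same letters on the other strand, AGTCC, were in 15.9% and 16.6% against 15.8% and 15.9%, and TCAGG, the letters in reverse order, in 21.1% and 20.9% against 21.5% and 21.5%. GGACT was in 31.8% of windows of genes with a peak at E33 only and in 32.9% of those with a peak at E40 only, with an interval of 26.2 to 40.4% for the latter.

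Several genes described above changed in peak class as well. ZIC2 and ZIC4 had a peak at E33 (fold enrichment 10.4 and 3.51) and none at E40. ZIC1 kept peaks at both stages, 2 in each list, with a highest fold of 5.48 at E33 and 6.89 at E40. Of 27 HOX genes, 11 had a peak at both stages, 8 at E33 only and none at E40 only. The shares of all genes tested were 20.6%, 13.2% and 1.17%. With so small a share at E40 only, none in a list of this size is uninformative. ID2 and ID3, RUNX2, SOX9, COL9A3 and GAP43, all lower at E40, had a peak at E33 only, with folds from 2.88 (GAP43) to 9.31 (SOX9). BOC, FN1, TNC, NEFL and IGF2BP1, also lower at E40, had peaks at both stages. Of all genes called lower, 27.3% had a peak at both stages, 22.4% at E33 only and 49.5% at neither.

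Sarcomere genes were listed mostly at both stages: 21 of 37, with 5 at E33 only and 2 at E40 only. Of all genes tested 20.6% were listed at both, but listing went up with RNA level, whose part was not tested here. TNNT3 had 2 peaks at E33 with a highest fold of 2.65 and 4 at E40 with one of 16.2. TNNI2 had 1 peak at each stage, of fold 2.31 and 2.79. MYOM2, at 8.89 ± 0.527 scaled TPM (SD, n = 3) at E33 and 39.1 ± 2.73 at E40, had no peak at E33 and 3 at E40 (highest fold 3.05), and ACTN2 had none and 1. PAX7 and PRELP, which rose, also had a peak at E40 only, with folds of 4.08 and 5.88.

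Peak class and RNA level did not always move together. CKM was listed with 1 peak at E33, of fold 4.32, and none at E40, while its RNA rose. The authors' list assigns that peak, at chr6:51699763-51700002, to CKM, but it lies outside the whole gene as RefSeq places it (chr6:51704021-51716935). DEPP1 had a peak at E40 only, and its RNA was at 4.12, 14.3 and 19.9 scaled TPM at E33 and at 0, 0 and 6.10 at E40. Its groups overlapped, and the fall was called with all libraries (log2 change -2.62, adjusted p = 0.0179) and not without E40 replicate 2 (adjusted p = 0.0574). SCN4A rose (log2 change 0.62, adjusted p = 0.0179), and KBTBD2 was not called (log2 change 0.26, adjusted p = 0.075). DLK1, whose RNA rose, had a peak at E33 only (fold 3.45). SLN and TCAP, both higher at E40, likewise had a peak at E33 only.

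Of the m6A machinery itself, 14 of 21 genes carried a peak at both stages, 3 at E33 only and none at E40 only. Over all genes tested these shares were 20.6%, 13.2% and 1.17%, so that none at E40 only is uninformative here. The part of RNA level was not tested. RBM15B had 4 peaks at E33 and 3 at E40, with highest folds of 6.41 and 9.56. IGF2BP1 had 2 and 1, with 1.84 and 2.90. ZC3H13, a subunit of the writer complex, had 6 at each stage, with 20.4 and 7.71.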

How the data were processed

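Input RNA and m6A immunoprecipitates of fetal longissimus dorsi were sequenced, with 3 libraries of each at E33 and at E40. Reads were trimmed with Trimmomatic and aligned with HISAT2 to Sscrofa11.1, per the submitters' processing notes. The authors deposited TPM per gene and input library, which sum to the same total, so that depth is unknown. They deposited 1 peak list per stage, in which, per the file headers, each peak has a fold enrichment (a ratio) and log p-values, and a score that holds the p-value. The quantifier, the peak caller, its threshold and the pooling of replicates are not given in the sources used here.

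TPM were divided by median-ratio factors over all 18 muscle input libraries (E33 to E95). Genes whose TPM averaged 1 or more in the 6 E33 and E40 libraries were tested with limma 3.58.1 (R 4.3.3; lmFit and eBayes with a trend) on log2(scaled TPM + 1), 1 mean per stage, with Benjamini-Hochberg adjustment over all genes and calls at 0.05. The fit used all 18 libraries and has 12 residual degrees of freedom. Named genes were members of 29 lists and, among genes with a symbol, called and not overlapping between stages, the 12 largest rises and 12 largest falls above 0 in all 6 libraries and up to 3 listed at 0 throughout each stage. The members and lists were chosen with earlier results of these data known, and the ZIC list after its values were seen. A few genes that this rule or the lists name are not reported here. Genes named for their peaks were the 3 of highest fold in each class; other genes named among peaks come from the lists. The files hold gene IDs alone, and a supplied table of IDs and symbols named 11047 of the 13762 genes tested.

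Peaks were compared over their exon blocks with at least 1 shared base and placed on 19563 RefSeq coding transcripts (bedtools 2.31.1, pysam 0.24.0). Other software was Python 3.11.15, numpy 2.4.6, pandas 2.3.3, scipy 1.17.1 and matplotlib 3.10.9. Wilson 95% intervals cover counting error only. The fit was tested on simulated data. Replicate numbers did not pair the samples. Alternatives were other scalings, pseudocounts, filters, libraries, peak thresholds and overlaps.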

Additional observations from a re-analysis of the deposited data

How the results depend on the processing

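The 3002 calls became 902 with the values as deposited and 1766 with the 6 libraries alone. In alternatives chosen after seeing the data, they became 518 with the 6 libraries as deposited and 476 as deposited without E40 replicate 2. Leaving out 1 library gave 1786 to 3488 calls; the count moved by over 1.5 times without E33 replicate 3 (1851), E40 replicate 1 (1786) and E40 replicate 3 (1903). Rescaling after removal of the 2 top genes gave 779 rises and 2013 falls. With the replicate number as a block, 2774 genes were called; deviations of same-numbered libraries correlated at 0.01, -0.07 and -0.01, so the numbers were not taken as pairs. Above the median fold of each list, genes with a peak at both stages numbered 1502 and E40 only 331, and 104 were E40 only among genes of at least 5 TPM at both stages. Overlap was 38.1% of E33 and 89.1% of E40 peaks at 50% of bases, and 41.4% and 75.5% above the median fold. The change in the class difference moved from 0.32 to 0.04 above the median fold, and ranged from 0.287 to 0.357 for E40 only and from -0.0865 to -0.0593 for E33 only when 1 library was left out. The cause was not tested. Results under an alternative were counted for genes named for the largest changes or as listed at 0 throughout a stage. Of these results, 517 kept their side of the threshold, 30 lost it and none reversed. These genes were chosen as called and not overlapping, and genes named from the lists alone were not counted. Of the results of the gene lists under an alternative, 864 were rated as the same and 276 as moved. Depth is unknown, so detection limits are not given, and the m6A lists carry no replicates.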

Other observations

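The 4 later stages show how far the E33 to E40 changes went. CKM stood at 274, 206 and 287 scaled TPM at E50 and 970.3, 1366 and 890.1 at E95, and TNNI2 at 2151, 1624 and 2569 and 5832, 9090.1 and 5852. MYOZ1 was at 46.7, 36.3 and 56.6 at E50 and 328, 451 and 286 at E95. In these 3 genes every later library was above every E40 library. PRELP was at 12.8 to 27.9 in the later libraries, a range that holds its E40 values, and CAPN6 went from 143, 151 and 154 at E50, all above E40, to 46.3, 46 and 44.3 at E95, all below it. MPPED2 was at 0.854 to 2.28 in the 12 later libraries. TAGLN was at 3.32, 7.24 and 7.84 at E40 and 20.2, 23.9 and 13.4 at E60. B3GNT4, listed at 0 in every E40 library, was above 0 in 10 of the 12 later ones, and CCIN in 9 of 12.

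Many genes with a peak at E33 and none at E40 had a peak at a later stage, and whether it overlapped the E33 peak was not counted. In the E33-only class of 1822 genes, 47.1% had one at E50 and 78.6% at some later stage (Wilson 95% intervals 44.8 to 49.4% and 76.7 to 80.5%). The later share was 85.7% for genes with a peak at E40 only, 99.3% for both and 14.5% for neither. Among the genes described, SOX9, RUNX2, ZIC2 and ZIC4 can be set side by side: at E50 SOX9 had 1 peak and the other 3 had none.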
